A study of Mus musculus with 9 samples.

Results

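ABC transporters are membrane proteins, with a few soluble relatives, that bind and split ATP at a conserved cassette. They were taken as every non-control array probe whose gene name consists of Abc, a subfamily letter from a to g, a number and at most 1 further letter. The rule found 111 probes for 50 genes, of 56605 non-control probes on the array. At least 1 probe was above background on all 3 arrays of a group for 43 of the 50 genes, which are the members tested below, among 23965 genes tested in all. The other 7 (Abca12, Abca13, Abca14, Abca15, Abca16, Abcb5 and Abcc8) had no probe that passed and have no values here. The study asked what silencing of Cav1, the gene of the caveolar coat protein caveolin-1, does to gene expression in activated hepatic stellate cells, liver pericytes that store retinoids when quiescent. RNA of primary stellate cells was hybridised to 9 single-colour Agilent arrays, 3 per group.

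All cells came from C57BL/6 mice 10 weeks old, were released by collagenase perfusion and were plated, per the labels. The si-cav group was kept on hard plates for 7 days and then transfected overnight with 5 nM of an siRNA against Cav1. The nc group was kept for the same time and received 5 nM of a negative control siRNA. The qhsc group is labelled as quiescent stellate cells with no treatment, and the labels give no harvest time for it. Thus nc against qhsc compares cultured, transfected cells with quiescent cells, and si-cav against nc compares the siRNAs within cultured cells. Whether samples within a group were separate animals or cultures is not given in the labels. The p-values therefore cover only the spread among the 9 samples, which may be technical.

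Most ABC proteins of the membrane move a substrate out of the cytosol, either out of the cell or into an organelle, at the cost of ATP. In liver they load cholesterol and phospholipid onto lipoproteins, fill bile with bile salts, phospholipid and sterols, and carry fatty acids into peroxisomes. A few have other tasks: the sulfonylurea receptors gate potassium channels, and the E and F subfamilies are soluble proteins of translation.

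Every signal below is a log2 value relative to the 75th percentile of the same array, so 0 is a spot as bright as that percentile. Signals of different probes are not comparable with each other, so each gene is compared only with itself across groups. A change is a difference of group means from limma over all 9 arrays, and it is called where the Benjamini-Hochberg adjusted p over all genes is under 0.05. Where a gene was above background on no array of a group, only a lower limit of the change is given, written as at least. Such limits depend on how the background was corrected.

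The qhsc arrays carried high signals of hepatocyte, sinusoidal endothelial and Kupffer cell markers. Of 10 hepatocyte markers, 10 were above background on all qhsc arrays, 3 on all nc arrays and 1 on all si-cav arrays. Their summed signal, in multiples of the 75th percentile, was 0.171 to 0.173 on si-cav arrays, 0.229 to 0.269 on nc arrays and 1087 to 1327 on qhsc arrays. The 8 markers of sinusoidal endothelium summed to 1.22 to 1.32 on si-cav, 1.49 to 1.80 on nc and 326 to 504 on qhsc arrays. The 8 markers of Kupffer cells summed to 6.74 to 7.69 on si-cav, 8.20 to 9.36 on nc and 169 to 276 on qhsc arrays. Sums of other lists were lower on qhsc arrays. The 5 tested cholangiocyte markers gave sums of 25.0 to 27.9 on si-cav, 27.4 to 33.2 on nc and 4.95 to 7.22 on qhsc arrays. The 7 mesothelial and portal fibroblast markers gave 144 to 156 on si-cav, 145 to 164 on nc and 21.4 to 31.2 on qhsc. Of the former 2 were called higher and 2 lower in nc than in qhsc, of the latter 5 and 2. Of 8 activated stellate markers 8 were called higher in nc than in qhsc, and of 9 quiescent stellate markers 6 were called lower and 1 higher. The 9 quiescent markers summed to 30.6 to 33.3 on si-cav, 34.3 to 35.0 on nc and 32.4 to 90.9 on qhsc arrays. In RNA of a whole sample, fewer cells of a type and less RNA per cell cannot be told apart. Cav1 itself had signals of -2.88, -2.89 and -3.07 on si-cav arrays, against -1.34, -1.12 and -1.09 on nc arrays, a log2 change of -1.76 (limma adjusted p = 0.145, and 0.0213 without qhsc array 1).

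Abcg5 and Abcg8 have overlapping promoter windows, and the sequence is printed because both genes had less signal in culture. They encode the partners of the pump that exports sterols into bile, and they are read in opposite directions from starts 110 bases apart. The Abcg8 window below holds 250 bases before and 50 after its start in RefSeq's GRCm38.p6, at chr17:84682871-84683170 on the plus strand. Capitals mark the 209 bases that also lie in the window of Abcg5, which is read from the minus strand.
Abcg8: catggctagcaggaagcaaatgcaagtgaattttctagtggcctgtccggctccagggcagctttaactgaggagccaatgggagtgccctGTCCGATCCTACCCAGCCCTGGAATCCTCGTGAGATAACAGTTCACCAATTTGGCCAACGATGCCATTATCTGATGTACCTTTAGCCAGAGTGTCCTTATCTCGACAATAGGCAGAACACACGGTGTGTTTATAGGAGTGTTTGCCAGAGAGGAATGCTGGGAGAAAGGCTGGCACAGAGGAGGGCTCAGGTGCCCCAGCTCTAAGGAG

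Motifs were counted over the same 300-base windows of all genes, on both strands. Windows were found for 38 of the 50 member genes, 45 windows in all. The core motif of nuclear receptors, AGGTCA, stood in 7 of the 45 windows (15.6%), against 16.3% of 32851 windows of all genes. A direct repeat with spacer was searched as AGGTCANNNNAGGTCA, which contains the core motif, and none of the 45 windows held it, against 0.0152% of all windows. The letters TATAAA stood in 7 member windows (15.6%), those of Abca1, Abca4, Abcb6, Abcg2, Abcg5 and Abcg8, against 13.6% of all windows. The E-box letters CACGTG stood in 6 member windows (13.3%), against 7.15% of all windows, and the GC box letters GGGCGG in 21 (46.7%), against 35.7%. Of the motifs searched, only the repeat contains another. These counts describe letters only, and no difference between the shares was tested.

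In nc against qhsc, 30 of 43 members were called (69.8%), against 68.1% of all genes tested, so the share was close to that of the whole array. Of these, 12 were higher (27.9%, all genes 42.1%) and 18 lower (41.9%, all genes 26%). Counts of calls by subfamily and partner list below stand beside the same shares of all genes. The median member changed by -0.24, while the median gene of all tested changed by +0.32. Without the filter on dim probes these medians were -0.32 and -0.21, so the contrast depends on the filter. A change of at least 1 in log2 and a call were seen for 24 members (55.8%, all genes 47.9%). In 32 members (74.4%, all genes 69.8%) the nc and qhsc arrays did not overlap. Of the 43 members, 36 were above background on all 9 arrays, 4 on all qhsc arrays and not on all arrays of both other groups, and 3 on all nc and si-cav arrays and not on all qhsc arrays. A member that passed through 1 side alone had to differ or be dim, so the counts describe the tested members. In the same comparison all 10 hepatocyte, 8 endothelial, 8 Kupffer cell and 6 lymphocyte and neutrophil markers were called lower, and their part in the falls of ABC genes was not tested.

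**Figure D1:**
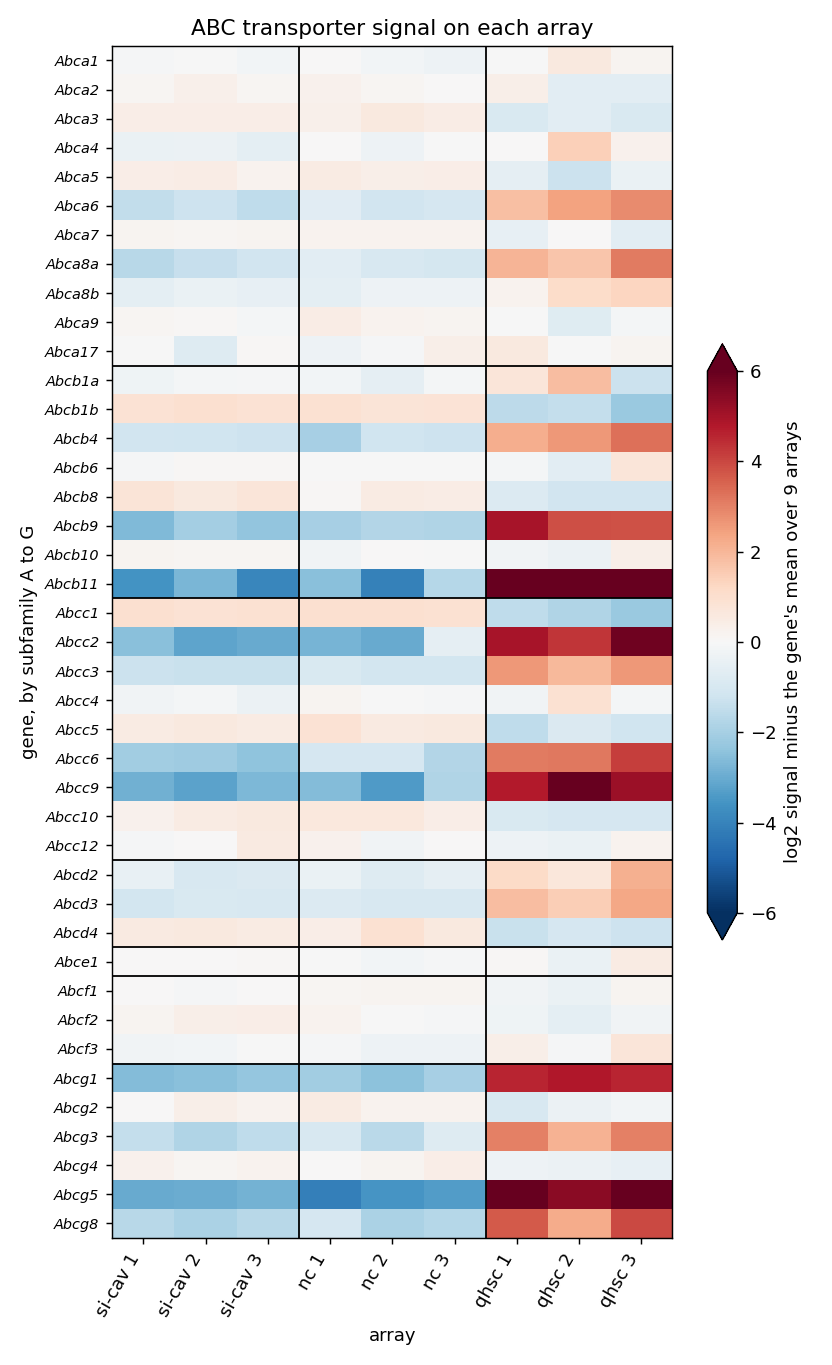
Log2 signal of 41 of the 43 members on each array minus the gene's own mean over the 9 arrays, with si-cav, nc and qhsc arrays as columns and genes as rows by subfamily; the colour scale ends at 6 and stronger values share its end colour. The qhsc columns stand apart for most genes of the G subfamily and for Abcb11, Abcc2 and Abcc9, while the si-cav and nc columns look much alike.

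Abca1, which loads cholesterol and phospholipid onto lipid-poor apolipoprotein A-I, is measured by a probe at chr4:53043944-53044003 (mm9). It had signals of 2.12, 2.16 and 2.03 on si-cav arrays, 2.24, 2.05 and 1.88 on nc arrays, and 2.19, 2.79 and 2.38 on qhsc arrays. The nc and qhsc arrays overlapped, and the change of -0.40 was not called (95% interval -0.81 to +0.01, limma adjusted p = 0.0761). Without qhsc array 1 the change was -0.53 and called (limma adjusted p = 0.0283). The second Abca1 probe gave -1.07 and was called (limma adjusted p = 0.00903, adjusted over all probes). Its 60 bases, printed because the 2 probes of Abca1 lead to different calls, fall within chr4:53048405-53049145 (mm9, minus strand), a stretch of 741 bases that is longer than the probe.
Abca1: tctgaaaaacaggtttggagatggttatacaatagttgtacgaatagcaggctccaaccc

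Abcg1, which passes cholesterol on to high-density lipoprotein, had the lowest p of all members. Its probe at chr17:31252580-31252639 (mm9) gave -3.77, -3.65 and -3.48 on si-cav arrays, -3.27, -3.60 and -3.17 on nc arrays, and 3.42, 3.65 and 3.39 on qhsc arrays. Every qhsc array lay above every array of cultured cells, and all 9 were above background. The signal was 114-fold lower in nc than in qhsc (log2 -6.84, SE 0.16, limma adjusted p = 3.6e-09). Over 23 alternative settings the change lay between -6.93 and -5.89.

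Abcg5 fell out of the measurable range in culture. It gave -6.96, -6.92 and -6.75 on si-cav arrays and -8.02, -7.49 and -7.30 on nc arrays, all below background, and 3.04, 1.49 and 3.49 on qhsc arrays. Abcg5 was at least 452-fold lower in nc than in qhsc (limma adjusted p = 9.1e-08). Its mean signal was -7.60 ± 0.38 in nc, which lies below background and gives no fold, and 2.67 ± 1.05 in qhsc (SD, n = 3 each). Its partner Abcg8 stayed above background on every array. Abcg8 gave -3.08, -3.30 and -3.10 on si-cav arrays, -2.44, -3.31 and -3.13 on nc arrays, and 2.27, 0.80 and 2.52 on qhsc arrays. It was 28.4-fold lower in nc than in qhsc (log2 -4.83, SE 0.42, limma adjusted p = 8.1e-06). In both genes qhsc array 2 was the lowest of its group, and without it the Abcg5 limit was at least 681-fold. With background corrected by normexp the Abcg5 limit was at least 58.9-fold, and at least 54.3-fold with quantile normalization as well.

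Other G members included rises. Abcg2, an exporter of urate and many drugs, gave 3.45, 3.75 and 3.62 on si-cav arrays, 3.91, 3.61 and 3.64 on nc arrays, and 2.46, 3.08 and 3.25 on qhsc arrays. It rose 1.73-fold in nc (log2 +0.79, SE 0.22, limma adjusted p = 0.00982), and every nc array lay above every qhsc array. Abcg4, a relative of Abcg1 best known from brain, rose by +0.60 (limma adjusted p = 0.00482; +0.44 and not called with slide as a block) by its brighter probe, while its dimmer probe was below background on all qhsc arrays and at least 3.34-fold higher in nc. Abcg3 fell by 3.82 on the log2 scale (limma adjusted p = 3.8e-06). So the 6 tested G members held 2 rises and 4 falls, with a median of -4.33. Of all genes 42.1% were called higher and 26% lower, with a median of +0.32.

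The wider sterol list was read beside them. Of 21 sterol efflux and liver X receptor genes, 5 were called higher and 14 lower in nc than in qhsc, and their median was -1.44, beside +0.32 over all genes. Nr1h3, the liver X receptor that switches on Abca1 and Abcg1, fell by 5.90 on the log2 scale (limma adjusted p = 5.5e-08), and Nr1h2, its widely expressed relative, fell by 0.62 (limma adjusted p = 0.00394). The largest called falls were Apoa1, whose protein accepts cholesterol from ABCA1 and which was at least 1774-fold lower, and Apoe at -10.56. The largest called rises were Soat1, which esterifies cholesterol for storage, at +2.53, and Npc2, a lysosomal cholesterol carrier, at +2.34. Apoa1 is also on the hepatocyte list. The markers of hepatocytes (10 of 10), sinusoidal endothelium (8 of 8) and Kupffer cells (8 of 8) were called lower too, with the summed signals above, and their part in the falls of this list was not tested.

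Abcb11, Abcc2 and Abcb4, which form bile at the hepatocyte canaliculus, fell in culture. Abcb11, the bile salt export pump, gave -7.98, -7.14 and -8.31 on si-cav arrays, none above background, -6.92, -8.43 and -6.11 on nc arrays, of which 1 of 3 was above background, and 1.62, 1.62 and 2.15 on qhsc arrays. The gap between qhsc and both other groups was wider than the spread within any of them (nc against qhsc log2 -8.95, SE 0.54, limma adjusted p = 6.9e-07; -8.31 without nc array 2, and at least 234-fold lower without nc array 3, the one above background). Abcc2, which exports bilirubin and drug conjugates into bile, gave -7.75, -8.41 and -8.26 on si-cav arrays, -8.01, -8.26 and -5.79 on nc arrays, and -0.31, -0.94 and 0.59 on qhsc arrays. It too was above background on 1 of 3 nc arrays and on no si-cav array, with a change of -7.13 in nc against qhsc (SE 0.63, limma adjusted p = 9.3e-06; at least 57.8-fold lower without nc array 3, the one above background).

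Abcb4, the phosphatidylcholine floppase of the canaliculus, remained above background in culture by its brightest probe. It gave -0.77, -0.84 and -0.87 on si-cav arrays, -1.60, -0.84 and -0.88 on nc arrays, and 2.55, 2.98 and 3.68 on qhsc arrays. It was 18.1-fold lower in nc than in qhsc (log2 -4.18, SE 0.30, limma adjusted p = 2.2e-06). Its other probes fell further: 1 was below background on all nc arrays and at least 58.5-fold lower. The other gave -6.42, with 1 of 3 nc arrays above background. Abcc3, the exporter of conjugates on the blood side of the hepatocyte, fell by 3.42 on the log2 scale (limma adjusted p = 4.3e-07).

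Abcc6, a liver transporter whose loss lets tissues mineralise, gave -4.99, -5.03 and -5.33 on si-cav arrays, -3.90, -3.93 and -4.69 on nc arrays, and 0.19, 0.23 and 1.23 on qhsc arrays. The 3 groups did not overlap. In nc it was 26.4-fold lower than in qhsc (log2 -4.72, SE 0.32, limma adjusted p = 1.4e-06), while its second probe gave -2.53 (limma adjusted p = 1.9e-06, over all probes). Of 14 tested genes for bile salt and organic anion handling in hepatocytes, 12 were called lower and none higher, with a median of -5.23, or -4.19 with genes below background at their limit. Slc10a1 of this list did not fall. It gave 7.05, 7.53 and 7.57 on nc arrays and 7.25, 7.34 and 7.08 on qhsc arrays (+0.16, limma adjusted p = 0.481). Slc27a5, which activates bile acids for conjugation, fell by 10.94 on the log2 scale, with 1 of 3 nc arrays above background. Slco1b2, an organic anion importer, had a log2 change of -9.09, with 2 of 3 nc arrays above background. These falls moved together with the 10 hepatocyte markers (all 10 called lower, median -13.01, or -12.38 at their limits, summed signals as above), and the part of hepatocyte RNA in them was not tested.

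Among exporters of drugs and organic anions, Abcc1, Abcb1b, Abcc5 and Abcc10 rose, and Abcb1a and Abcc4 were not called. Abcc1, which exports glutathione conjugates and leukotriene C4, gave 0.76, 0.65 and 0.73 on si-cav arrays, 0.76, 0.79 and 0.71 on nc arrays, and -1.72, -2.01 and -2.42 on qhsc arrays. The nc arrays lay close together and above all qhsc arrays, a rise of 6.97-fold (log2 +2.80, SE 0.18, limma adjusted p = 1.0e-06), although its second probe gave only +0.57 (limma adjusted p = 0.0308, over all probes). Abcb1b, a rodent P-glycoprotein that expels drugs, gave 0.26, 0.33 and 0.26 on si-cav arrays, 0.29, 0.17 and 0.20 on nc arrays, and -2.20, -2.04 and -2.85 on qhsc arrays. It rose 5.99-fold (log2 +2.58, SE 0.20, limma adjusted p = 3.9e-06). Its neighbour and near relative Abcb1a, the other rodent P-glycoprotein, spread over more than 3 log2 units in qhsc (-2.78, -1.65 and -4.79) and was not called (-0.69, limma adjusted p = 0.36). Its change was +0.02 without qhsc array 2 and -1.54, with a call, without qhsc array 3. The second Abcb1a probe gave -2.57 and was called (limma adjusted p = 2.2e-05, over all probes).

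Probe sequences of Abcc1 and Abcb4 are printed because these members of 1 superfamily moved in opposite directions. The Abcc1 probe lies at chr16:14473598-14473657 and the Abcb4 probe at chr5:8959108-8959167, both on the plus strand of mm9. Over the 73 kept member probes, the longest unbroken run of bases shared by probes of different members was 11. Likeness with mismatches was not measured, and probes were not compared with the transcripts of other members.
Abcc1: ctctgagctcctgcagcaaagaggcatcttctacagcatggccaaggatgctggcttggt
Abcb4: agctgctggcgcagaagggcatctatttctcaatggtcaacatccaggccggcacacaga

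Abcc5, an exporter of cyclic nucleotides and other anions, gave 2.98, 3.04 and 2.97 on si-cav arrays, 3.34, 3.02 and 3.04 on nc arrays, and 0.92, 1.61 and 1.25 on qhsc arrays. It rose 3.66-fold (log2 +1.87, SE 0.19, limma adjusted p = 2.2e-05), with +0.37 to +2.17 over its 6 probes. Abcc10, a broad drug exporter, gave 0.61, 0.82 and 0.90 on si-cav arrays, 0.96, 0.97 and 0.71 on nc arrays, and -0.60, -0.69 and -0.69 on qhsc arrays. It rose 2.91-fold (log2 +1.54, SE 0.14, limma adjusted p = 1.2e-05). For Abcc5 and Abcc10 alike every array of cultured cells lay above every qhsc array. Abcc4, which exports cyclic nucleotides and prostaglandins, was not called (-0.19, limma adjusted p = 0.573). Abcc12 was below background on all qhsc arrays and no bound above 1 could be given.

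Of 7 regulators of drug transport, 2 were called higher and 5 lower, with a median of -7.40, or -7.36 with genes below background at their limit. The risers were Ahr, the dioxin receptor, at +0.68 and Nfe2l2, the oxidative stress factor that induces Abcc1, at +0.59. Hnf4a, a hepatocyte factor and one of the hepatocyte markers, was at least 5117-fold lower.

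Abcc9 encodes a sulfonylurea receptor, the regulatory subunit of potassium channels that close when ATP is plentiful, and is known from vascular mural cells. Its probe at chr6:142536920-142536979 (mm9) gave -7.98, -8.30 and -7.76 on si-cav arrays and -7.70, -8.49 and -6.86 on nc arrays, none above background. On qhsc arrays it gave -0.32, 1.66 and 0.03. Abcc9 was at least 97.2-fold lower in nc than in qhsc (limma adjusted p = 1.3e-06). Its mean signal was -7.69 ± 0.81 in nc, which lies below background and gives no fold, and 0.46 ± 1.06 in qhsc (SD, n = 3 each). The highest qhsc value came from array 2, and without that array the limit was at least 64.1-fold. With normexp it was at least 12.1-fold, and at least 10.66-fold with quantile normalization as well. Kcnj8, the pore subunit that pairs with this receptor, fell by 3.21 (limma adjusted p = 3.9e-05) and Kcnj11, the other pore gene, was not tested. Of 6 smooth muscle and pericyte markers, 3 were called higher and 2 lower, and Kcnj8 is itself 1 of the 2. Their summed signal was 25.7 to 32.2 on si-cav arrays, 27.5 to 27.9 on nc arrays and 43.4 to 61.3 on qhsc arrays.

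**Figure D2:**
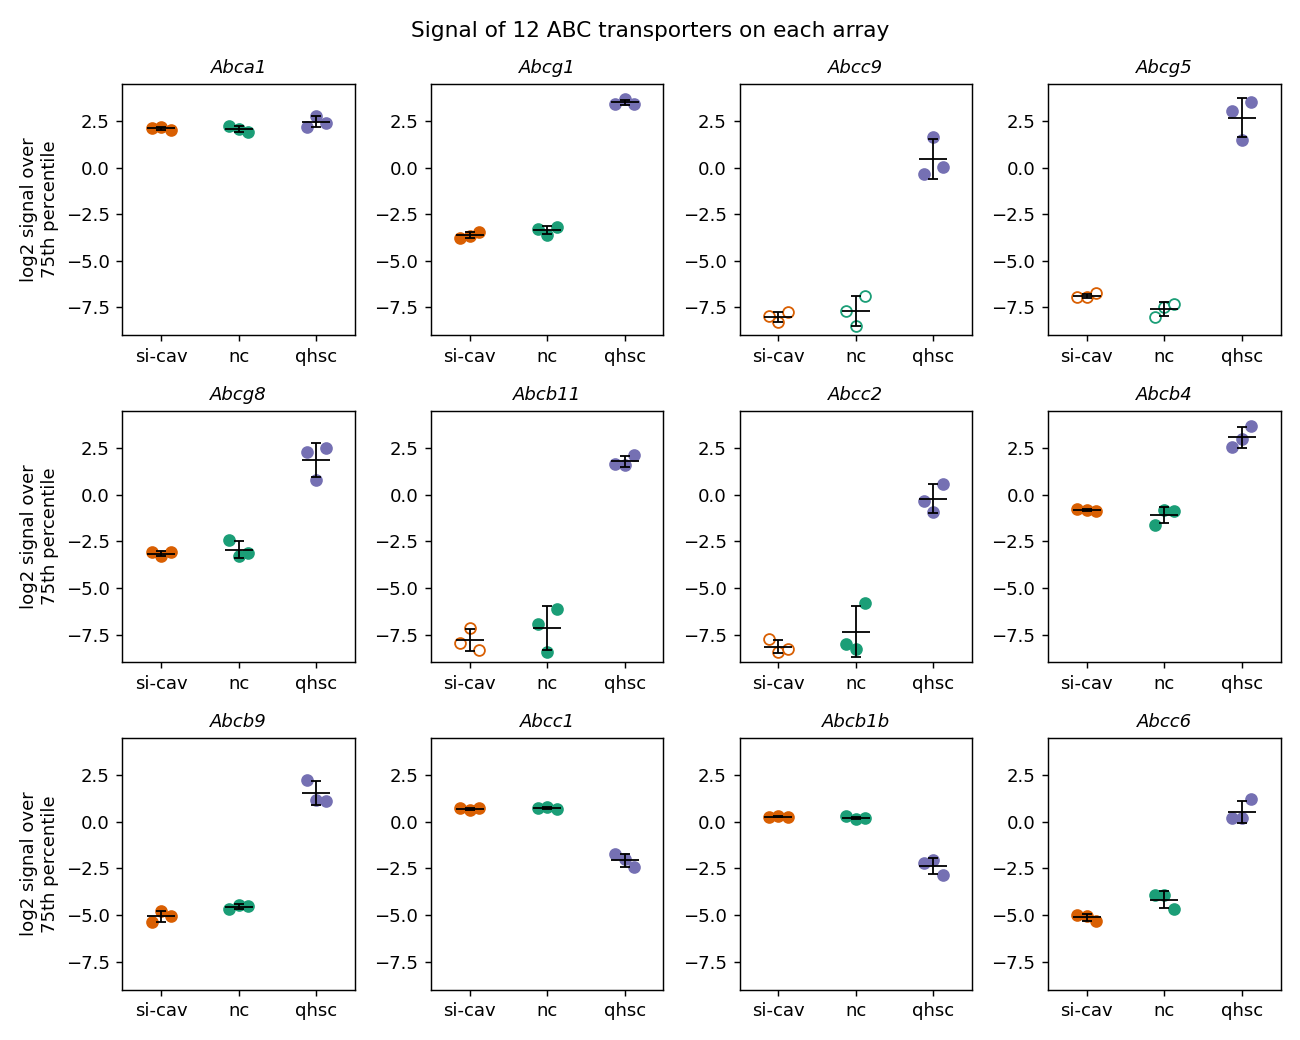
Log2 signal relative to the array's 75th percentile of 12 members on each si-cav, nc and qhsc array; bars are mean and SD of 3 arrays, and open points mark groups in which the probe was above background on no array. Abca1 lies near 2 in all groups, Abcc1 and Abcb1b are higher in both cultured groups than in qhsc, and the other 9 are lower there.

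Lipid transporters of the A subfamily other than Abca1 gave 4 rises, 3 falls and 3 without a call (all genes 42.1% higher and 26% lower). Abca3, which fills surfactant lamellar bodies in lung, gave 2.97, 2.97 and 2.96 on si-cav arrays, 2.91, 3.16 and 3.01 on nc arrays, and 1.67, 1.95 and 1.66 on qhsc arrays. It rose 2.40-fold (log2 +1.27, SE 0.14, limma adjusted p = 4.0e-05), and its second probe gave +0.33 without a call. Abca5, a transporter of lysosomes, gave -3.63, -3.59 and -3.83 on si-cav arrays, -3.51, -3.68 and -3.62 on nc arrays, and -4.57, -5.32 and -4.43 on qhsc arrays, where 2 of 3 were above background. It rose by +1.17 (SE 0.23, limma adjusted p = 0.00152), but the change was -0.09 when the background was corrected by normexp. Abca7, a relative of Abca1, rose by +0.60 (limma adjusted p = 0.0141), a call lost with slide as a block (+0.58), with the mean of its probes (+0.47) and with normexp and quantile normalization (+0.41).

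Abca8b, Abca8a, Abca9, Abca6 and Abca5 follow each other without another protein-coding gene between them on chromosome 11. Along this row the changes in nc against qhsc were -1.27 for Abca8b, -3.16 for Abca8a, +0.56 for Abca9, -3.31 for Abca6 and +1.17 for Abca5, so neighbours moved in both directions. Abca6 gave -5.05, -4.83 and -5.08 on si-cav arrays, -4.24, -4.70 and -4.58 on nc arrays, and -1.74, -1.15 and -0.70 on qhsc arrays, a 9.90-fold lower signal in nc than in qhsc (SE 0.26 in log2, limma adjusted p = 3.6e-06). The call of Abca9 (limma adjusted p = 0.0387) was lost in 16 of 23 alternatives, among them without qhsc array 2 (+0.33) and without any 1 of the nc (+0.46 to +0.61) or si-cav arrays (+0.56). The 3 probes of Abca8b gave -1.27, -0.55 and +1.20, the last below background on all qhsc arrays, so its direction depends on the probe. Abca2, Abca4 and Abca17 had changes of +0.43, -0.68 and -0.24 without a call, although without qhsc array 1 Abca2 (+0.76) and Abca4 (-0.94) were called.

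The neighbours on chromosome 5 also diverged. Abcb1a, Abcb1b and Abcb4 follow each other there, with -0.69, +2.58 and -4.18 by their brightest probes. Abca17 and Abca3, which overlap on chromosome 17, gave -0.24 and +1.27.

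Other B members sit in mitochondria and lysosomes. Abcb9, which carries peptides into lysosomes, gave -5.34, -4.75 and -5.07 on si-cav arrays, -4.69, -4.46 and -4.50 on nc arrays, and 2.27, 1.18 and 1.12 on qhsc arrays. It was 67.5-fold lower in nc than in qhsc (log2 -6.08, SE 0.30, limma adjusted p = 2.0e-07). Abcb8, a mitochondrial transporter, gave 0.05, -0.14 and -0.01 on si-cav arrays, -0.63, -0.21 and -0.29 on nc arrays, and -1.52, -1.85 and -1.85 on qhsc arrays. It rose 2.56-fold (log2 +1.36, SE 0.17, limma adjusted p = 7.8e-05). Abcb6, a porphyrin transporter, and Abcb10, needed for haem synthesis in red cell precursors, changed by -0.01 and +0.01 without a call.

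Of 11 genes for mitochondrial iron-sulphur clusters and haem, 9 were called lower and none higher, with a median of -0.77. Of all genes 26% were called lower and 42.1% higher. Alas1, the first enzyme of haem synthesis, fell by 3.07 and Slc25a37, the mitochondrial iron importer, by 1.53 on the log2 scale. Hepatocyte markers fell with this list as well, and their part in it was not tested. Tap1 and Tap2, the ABC peptide pump of antigen presentation that the name rule leaves out, changed by +0.48 without a call and -0.52 (limma adjusted p = 0.0332), and Cftr was not tested. Of 8 genes for peptide loading of MHC class I, 2 were called higher and 5 lower (median -1.35), with Pdia3 at +1.66, Calr at +1.01, H2-K1 at -4.44 and H2-D1 at -4.24. Kupffer cell markers fell with them (8 of 8 called lower, summed signals as above), and their part in it was not tested.

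In the peroxisomal D subfamily the members differed in direction. Abcd3, the main fatty acid transporter of the peroxisomal membrane in liver, gave 2.93, 3.08 and 3.03 on si-cav arrays, 3.21, 3.07 and 3.07 on nc arrays, and 5.86, 5.50 and 6.35 on qhsc arrays. It was 6.90-fold lower in nc than in qhsc (log2 -2.79, SE 0.21, limma adjusted p = 2.7e-06). Abcd2, a carrier of very long-chain fatty acids, fell by 1.87 on the log2 scale (limma adjusted p = 9.99e-04). Abcd4, which works with vitamin B12 in lysosomes rather than in peroxisomes, gave 1.76, 1.77 and 1.70 on si-cav arrays, 1.62, 2.12 and 1.81 on nc arrays, and -0.11, 0.20 and -0.02 on qhsc arrays, a rise of 3.55-fold (log2 +1.83, SE 0.16, limma adjusted p = 9.1e-06). Of 10 peroxisomal fatty acid genes, 9 were called lower and none higher (all genes 26% lower and 42.1% higher). Their median was -2.56, with Acox2 at -9.31 and Ehhadh at -7.34. Hepatocyte markers fell with these genes too, and their part in it was not tested.

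The soluble E and F members gave 1 call among 4, against 68.1% of all genes. Abce1, which splits ribosomes after translation, had -0.14 without a call by its brighter probe and +2.56 by its dimmer one (limma adjusted p = 3.2e-05, over all probes), which was above background on 1 of 3 qhsc arrays. Abcf1, a translation factor, gave 3.22, 3.13 and 3.23 on si-cav arrays, 3.31, 3.38 and 3.37 on nc arrays, and 3.01, 2.81 and 3.38 on qhsc arrays, with overlap between nc and qhsc and no call (+0.28). Abcf2 gave 0.60, 0.79 and 0.84 on si-cav arrays, 0.64, 0.42 and 0.37 on nc arrays, and 0.18, -0.14 and 0.24 on qhsc arrays, and its +0.38 missed the threshold (limma adjusted p = 0.0558). Abcf3 fell by 0.55 on the log2 scale (limma adjusted p = 0.0327), a call lost in 9 of 23 alternatives, among them without qhsc array 1 (-0.54), qhsc array 3 (-0.37), nc array 2 (-0.51), nc array 3 (-0.52) or si-cav array 2 (-0.55). Calls appeared for Abce1 without qhsc array 2 (-0.36), and for Abcf1 (+0.44) and Abcf2 (+0.46) without qhsc array 3. Of 8 partners in ribosome recycling and translation, 3 were called higher and 1 lower (median +0.44), with Gcn1 at +1.12, Eif2s1 at +1.12 and Eif5 at -0.55.

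**Figure D3:**
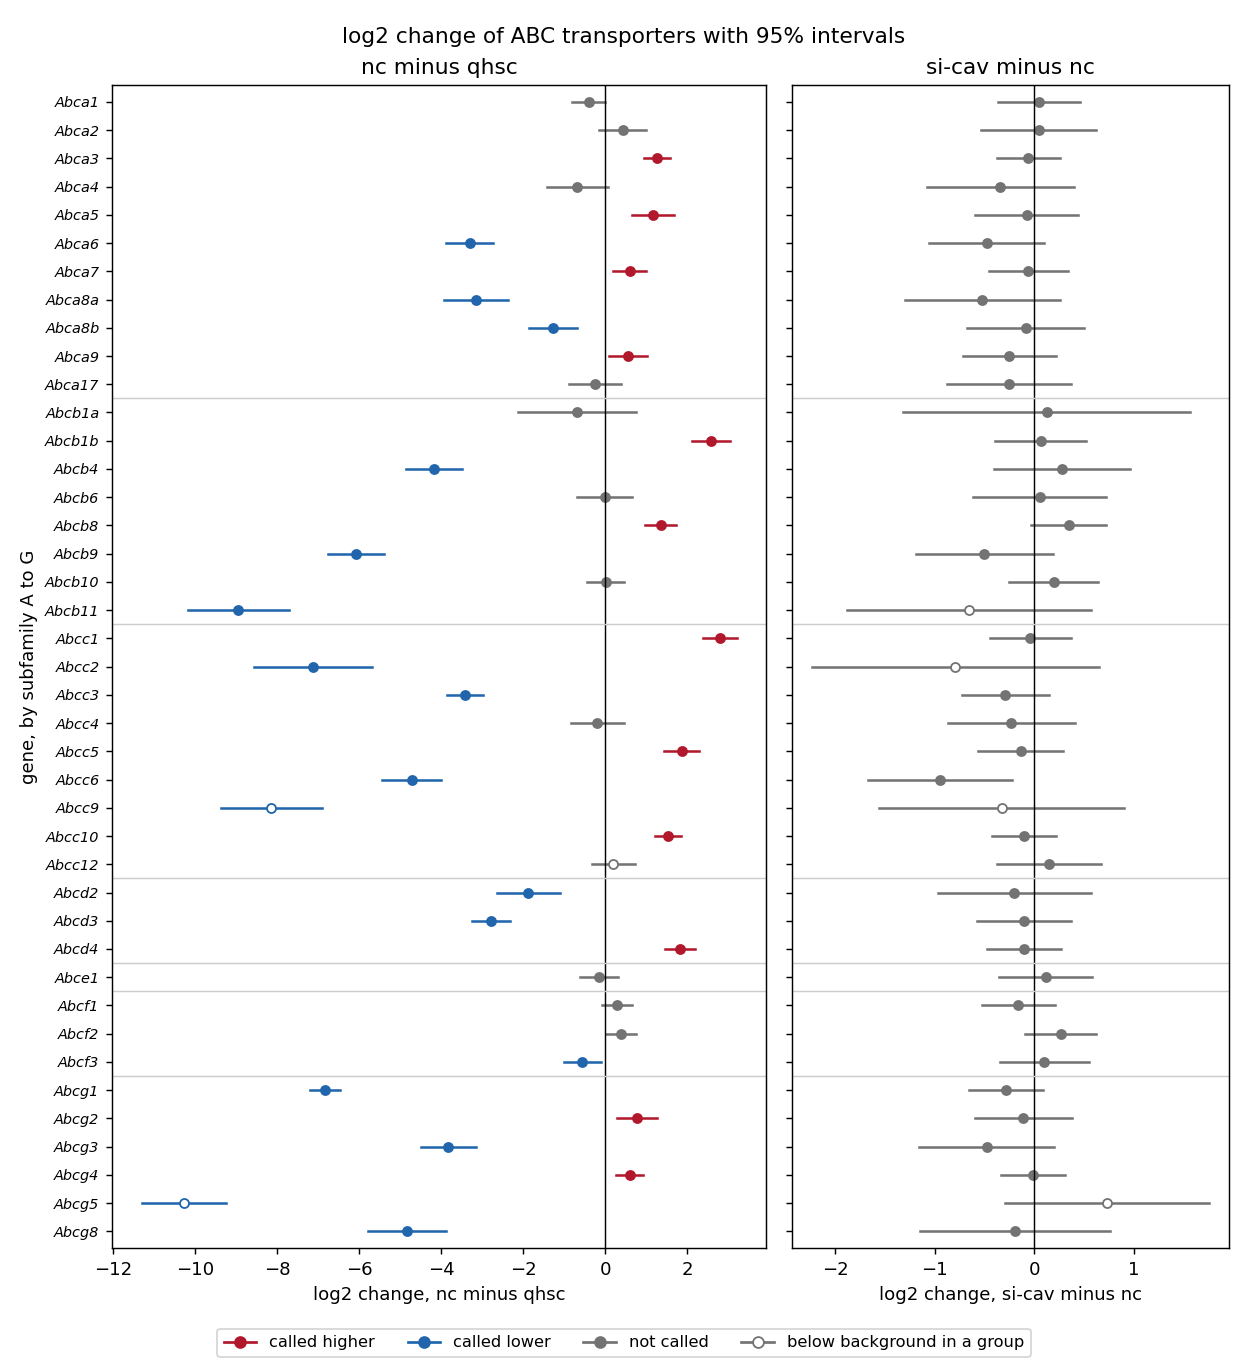
Log2 change of 41 of the 43 members with its 95% interval from limma, nc minus qhsc on the left and si-cav minus nc on the right on a finer scale; colour marks calls and open points mark genes above background on no array of at least 1 of the groups compared, whose fitted change is not a measured size. On the left 12 of those shown are called higher and 17 lower; on the right none is called, and the interval of Abcc6 alone leaves out 0.

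Probes of 1 gene did not always give 1 answer. Of 19 members with more than 1 kept probe, 16 had all probes on the same side of 0 in nc against qhsc and 3 did not (Abca8b, Abce1 and Abcf1). In 11 of the 19 the probes differed by more than 1 in log2. Abca8b was the single member with called probes in opposite directions. Over all 73 kept member probes 49 were called (67.1%), against 67.9% of all kept probes.

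**Figure D4:**
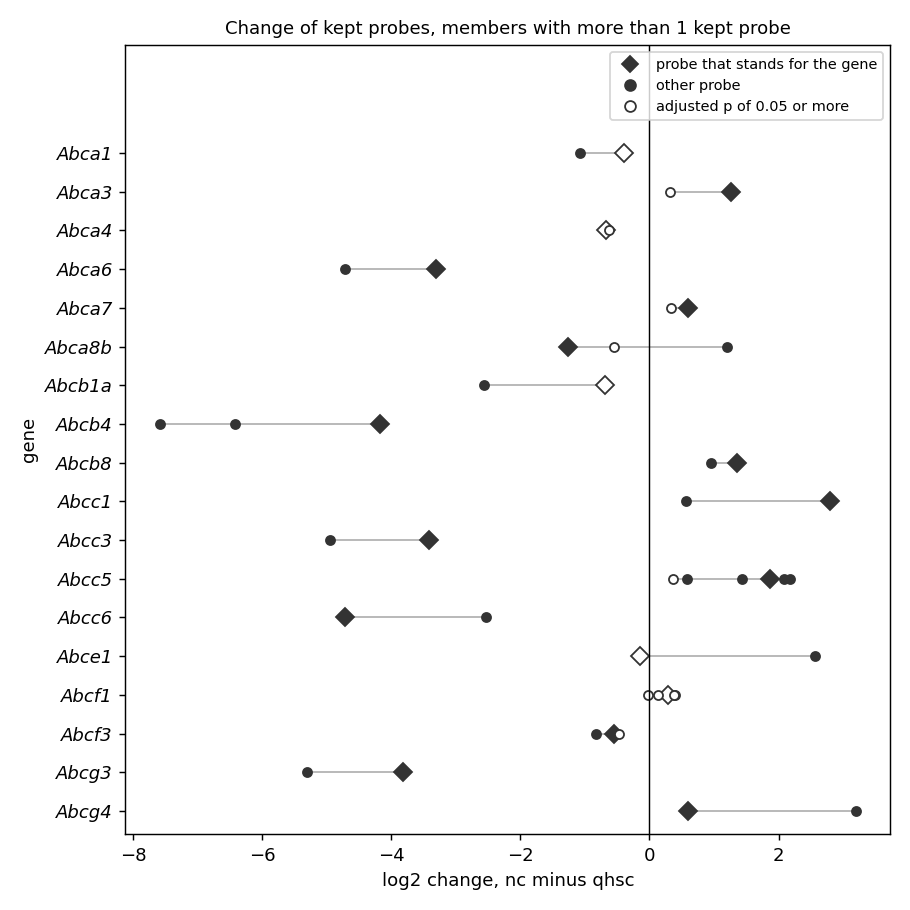
Log2 change in nc minus qhsc of each kept probe of 18 of the 19 members with more than 1 kept probe; diamonds are the brightest probe, which stands for the gene, circles the others, and open symbols have a limma adjusted p of 0.05 or more. Abca8b spans 0 from -1.27 to +1.20, Abce1 from -0.14 to +2.56, while the 3 probes of Abcb4 all lie below -4.

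Slides bear on the comparison with qhsc. Slide 1 held the 3 qhsc arrays and nc array 1, and slide 2 the other arrays, so within slide 1 the comparison rests on 1 nc array. There Abcg1 changed by -6.76, Abcc1 by +2.81 and Abcb1b by +2.65, while Abcg5 was at least 388-fold, Abcb11 at least 211-fold and Abcc9 at least 83.4-fold lower in nc. With slide as a block, 9 members were called higher and 16 lower (58.1%, against 52.4% of all genes).

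In si-cav against nc no member was called, and no gene was called among all genes either (0%). Other settings called 0 to 7 of all genes, except array weights, with 656 (2.74%), and each called no member by the probe that stands for it. At an unadjusted p under 0.05 stood 1 of 43 members (2.33%), against 4.96% of all genes. This count depended on the fit: it was 8 with only the 2 groups fitted and 10 with array weights. The share of all genes at that p was not counted for those fits. The main fit, which also gave the intervals below, shares 1 spread over all groups. The median SD of members was 0.11 in si-cav, 0.17 in nc and 0.43 in qhsc. The member arrays of si-cav and nc did not overlap in 14 of 43 (32.6%), against 22.6% of all genes. The median member changed by -0.10 and the median gene by -0.04. The 95% interval lay within 1 log2 unit either side of 0 for 31 members and reached beyond it for 12, with a median half-width of 0.52. For those 31 members a change of 1 log2 unit or more lay outside the interval, and where it was narrower some smaller changes did too. Differences inside the interval were not resolved.

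Abcc6 had the lowest p of the set in this comparison. As given above, every si-cav array lay below every nc array, with means of -5.12 ± 0.19 in si-cav and -4.17 ± 0.45 in nc (SD, n = 3 each). The change was -0.95 (95% interval -1.67 to -0.22, unadjusted p = 0.016, limma adjusted p = 0.809) and -0.81 within slide 2. Its second probe changed by -0.24. The next members by p were Abcb8 at +0.35 (95% interval -0.03 to +0.72), Abca6 at -0.48 (-1.06 to +0.10), Abcg1 at -0.28 (-0.66 to +0.09), Abcf2 at +0.27 (-0.09 to +0.62) and Abcb9 at -0.50 (-1.19 to +0.18), each with a limma adjusted p of 0.9998. In Abcc6, Abcb8, Abca6 and Abcb9 the groups did not overlap, while in Abcg1 and Abcf2 they did. Abca1 changed by +0.05 (95% interval -0.36 to +0.45). Abcg5 and Abcc9 were below background in both groups and have no fold here.

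No gene of the partner lists was called in si-cav against nc, where no gene of the array was called either. The list medians lay between -0.35 for bile salt and organic anion handling and +0.10 for the ribosome recycling partners, and the K-ATP pore gene Kcnj8 stood at -0.33. Single genes moved more than the medians. The largest change was -1.11 for Hsd17b4 of the peroxisomal list. Its signals were 2.47, 2.42 and 2.42 on si-cav arrays and 3.66, 3.52 and 3.48 on nc arrays, without overlap.

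In si-cav against qhsc, which shares its qhsc arrays with the comparison above, 30 of 43 members were called (69.8%, against 67.6% of all genes), 12 higher (all genes 40.4%) and 18 lower (all genes 27.2%). No slide held arrays of both groups, so this comparison runs across slides, linked only through the nc arrays. With slide as a block, 8 members were called higher and 15 lower (53.5%, against 42.3% of all genes). Abcg5 was at least 410-fold lower in si-cav than in qhsc, Abcb11 at least 223-fold, Abcc9 at least 88.2-fold and Abcc2 at least 55.1-fold. With normexp and quantile normalization these limits were 53.3-fold, 34.2-fold, 11.3-fold and 8.17-fold, and without qhsc array 2 those of Abcg5 and Abcc9 were 618-fold and 58.1-fold. Abcg1 changed by -7.12, Abcc6 by -5.67, Abcc1 by +2.76 and Abcb1b by +2.65, beside -6.84, -4.72, +2.80 and +2.58 in nc against qhsc. Abca4 (-1.02, limma adjusted p = 0.0203) and Abcf2 (+0.65, limma adjusted p = 0.00536) were called here and not in nc against qhsc, Abca4 no longer so without si-cav array 3 (-0.96) or with slide as a block (-0.83). Abca9 (+0.31, limma adjusted p = 0.216) and Abcf3 (-0.45, limma adjusted p = 0.068) were called in nc against qhsc and not here, although Abcf3 was called here without qhsc array 2 (-0.65). Differences between those 2 comparisons are the si-cav against nc changes, none of which passed the test.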

How the data were processed

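RNA of 9 samples (3 si-cav, 3 nc, 3 qhsc) was measured on single-colour Agilent arrays. The deposited values are spot intensity on a linear scale, background-subtracted and detrended but not scaled between arrays, per the file headers. Agilent Feature Extraction 10.7.1.1 made them, per the submitters' processing notes. The authors' series table holds the same intensity averaged per probe and served as an alternative. Probe coordinates are mm9, per the file headers.

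Intensities were put on the log2 scale, and the 75th percentile of each array was subtracted. Outlier spots were dropped. Probes entered when 0.5 or more of the spots carried the flag for well above background on all 3 arrays of a group, and the brightest kept probe stood for its gene. No spot was saturated. The number of arrays limits the precision. Between 51.5% and 69.0% of probes were above background per array.

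Groups were compared with limma 3.58.1 (R 4.3.3, two-sided, lmFit then eBayes on all 9 arrays), with Benjamini-Hochberg adjustment over 23965 genes and calls under 0.05. The test was checked on simulated data in which all groups had the same spread. In these data the median SD of all genes was 0.12 in si-cav, 0.16 in nc and 0.35 in qhsc, which that check does not cover. A lower bound sets the mean of the brighter group against, on each array of the dimmer group, the lowest signal called above background there or the probe's own signal where higher. Alternatives changed the scaling, background correction, filter, probe choice, fit, weights and blocks, or left out 1 array. Figures used matplotlib 3.10.9, and promoter windows and neighbour order came from RefSeq (GRCm38.p6).

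Members are accounted for by subfamily, except that the values of 2 tested members are not reported here; they remain in the counts. Values on every array are given for Abca1, Abcg1, Abcc9, the 8 largest called rises and 8 largest called falls in nc against qhsc, the 6 lowest p in si-cav against nc, and the 3 members with the highest signal in each group, which chose what to print and compares no levels; Abcb4 and Abcb1a were added after their values were seen. Partner lists are counted in full with at most 4 genes named. Members and lists were chosen with earlier results of these data known.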

Additional observations from a re-analysis of the deposited data

How the results depend on the processing

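Of 23 alternatives, each left between 25 and 34 members called in nc against qhsc (30 in the report, 69.8%, against 68.1% of all genes) and none in si-cav against nc. The 25 came with slide as a block (58.1%, against 52.4% of all genes). It also came with probes above background on all 9 arrays, where 36 members were tested and 11716 of 16819 genes called. The 34 came with normexp and the 75th percentile, where 17005 of 23965 genes were called. Without a filter on dim probes 50 members were tested. The median change in nc against qhsc was then -0.32 for members and -0.21 for all genes. Under that setting 11 of 50 members and 9641 of 36952 genes were called higher. In 23 of 43 members the call and direction in nc against qhsc were the same under every alternative that gave a value. Median changes of all genes moved from +0.32 to +0.47 with median scaling, +0.14 with normexp and quantile normalization and -0.12 with normexp and the 75th percentile, and the share of calls that were higher was 46.2% of all genes under the last of these, against 61.8% in the report (32.4% against 40% of members). Under that setting Abca5 turned to -0.09 in nc against qhsc and -0.12 in si-cav against qhsc, and Abcc12 to -0.51 and -0.45. With normexp and quantile normalization the falls in nc against qhsc were smaller, at -5.07 for Abcb11 and -3.02 for Abcc2, and the limits at least 54.3-fold for Abcg5 and 10.66-fold for Abcc9. With the mean of kept probes Abce1 was +1.21 in nc against qhsc and +1.07 in si-cav against qhsc, since its probes disagree. Array weights called 656 genes (2.74%) in si-cav against nc but no member by the probe that stands for it, and gave 3 called member probes there, among them those of Abcb1a (-0.61) and Abca6 (-1.46). Cav1 passed the threshold with normexp (-1.25 with the 75th percentile, -1.15 with quantile normalization), with only the 2 groups fitted (-1.76), with array weights (-1.87) and without qhsc array 1 (-1.76), and leaving out 1 array gave -1.84 to -1.70. Calls lost under some alternatives included those of Abca9, Abcf3, Abca7, Abca8b and Abcg4. Abca1 gained a call in 6 alternatives and Abcb1a in 3; without qhsc array 2 Abcb1a stood at +0.02. The cause of these shifts was not tested, apart from the probes of Abce1.

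Replicate numbers did not pair the samples (correlations of same-numbered deviations -0.11 to +0.17). With the replicate block, 12 of 43 members were called higher and 18 lower in nc against qhsc. Of all genes 15837 of 23965 were called there, 9818 of them higher. In si-cav against nc 0 members and 0 of all genes were called. Dim genes are limited by background: 4 members have lower bounds in si-cav against qhsc and 2 in nc against qhsc.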
